A study of Mus musculus with 4 samples.

Results

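The genes described here encode 9 proteins of blood coagulation and plasminogen activation, taken by symbol from the 23284 genes listed for mouse bone marrow-derived macrophages: F3, F7, F10, F13a1, Tfpi, Plau, Plaur, Serpinb2 and Thbs1. They were chosen by role and with their FPKM levels, LPS ratios and genotype ratios in these libraries already known, so those values are a description and no test was made on them. The macrophages had been grown in culture from bone marrow and were either control (Spic+/+) or knockout (Spic-/-) for Spic, the gene of the heme-inducible Ets family factor Spi-C. Cells of each genotype were kept with hemin, the oxidised form of heme, for 18 h and then for 4 h either with lipopolysaccharide (LPS, 100 ng/ml), the bacterial ligand of Toll-like receptor 4, or without it, which gives 4 groups of 1 library each. Libraries without LPS are called untreated below, although all cells had received hemin. Hemin was given at 40 µM per the treatment protocol, while the sample descriptions give that number in mM. The sample titles write the knockout as cKO, and the allele, the Cre driver, the mouse strain, the age and the number of mice are not given in the sources used here. Titles also label the libraries without LPS 0h and those with LPS 4h. By themselves they do not say how long the former were kept without LPS.

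The tissue factor pathway of coagulation starts when tissue factor, the product of F3, meets factor VII on a cell surface. That complex activates factor X, which leads to thrombin and fibrin, and tissue factor pathway inhibitor holds it in check. Fibrin is later dissolved by plasmin, which urokinase cuts from plasminogen, often while bound to its receptor, and serpins such as PAI-2 block urokinase. Monocytes and macrophages are known to make tissue factor, urokinase, its receptor and PAI-2.

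Values are FPKM (fragments per kilobase of transcript, scaled for library size), which can be set beside each other between genes because they are per length. Because each group is a single library, differences have no replicate check and p-values are not given. Judged by the smallest steps between low values, each FPKM unit equalled some 15.6 fragments per kilobase in untreated control and 10.6 in LPS-treated control, and 12.95 and 8.08 in the matching knockout libraries. Intervals given below are exact 95% intervals of the estimated fragments and cover counting error only, not differences between cultures. Log2 ratios are of (FPKM + 1), which understates the ratios of low genes. Calls of higher and lower were made at 2-fold or more on that scale, for genes with at least 5 FPKM in 1 of the libraries compared. Spic stood at 53.1 FPKM in control and 14.98 in untreated knockout, and at 406 and 80.8 with LPS. Most macrophage markers were high in all 4 libraries, with Cd68 between 565 and 789 FPKM and Csf1r between 265 and 371. Mertk was lower, at 6.85 to 18.5 FPKM, with a log2 ratio of −1.32 with LPS in control and −0.82 in knockout. With LPS, 2 of the 7 macrophage markers in the files stood higher in each genotype, with median log2 ratios of −0.27 in control and −0.25 in knockout. Markers of megakaryocytes and platelets other than Pf4, and those of endothelial cells other than Kdr, did not reach 1 FPKM, with Gp9 and Gp6 listed at 0 throughout. Pf4 itself was at 327 FPKM in untreated and 718 in LPS-treated control, and at 329 and 582 in knockout. Of the 7 macrophage markers in the files, 5 stood higher in knockout without LPS and 6 with LPS, with median log2 ratios of 0.21 and 0.29. Lyz2 was lower in knockout, at 6340 against 4014 FPKM without LPS and 5620 against 3419 with LPS, and being by far the most abundant it set the sum of the list, which was 8052 against 6048 and 7299 against 5433. Neutrophil markers moved with LPS, summing to 41.6 and 242 FPKM in control and 31.5 and 131 in knockout, mostly through S100a8, while Mpo was at 0. The part of these markers in the members' ratios was not tested.

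F3, F10, Plaur and Serpinb2 are the 4 members whose levels with LPS were 2-fold or more above those without it in each genotype, beside 12.3% of all 8050 genes with enough signal in control and 13.7% of 8098 in knockout. Their upstream sequences are shown because these genes stood higher together. RefSeq promoters (GRCm38.p6) matched 7 of the 9 members, all but Plau and Thbs1, with 10 starts. The 250 bases before each start were searched on both strands. Capitals mark matches to the AP-1 motif TGANTCA and to GAGGAA, the PU box that factors of the Spi family are known to bind, or its reverse complement. The windows lie at chr3:121723287-121723536 for F3, chr7:24462233-24462482 for Plaur, chr1:107511173-107511422 for the upstream one of 2 Serpinb2 starts, and chr8:13037058-13037307 for F10, all on the plus strand. Those of Plaur and Serpinb2, and the F7 window, lie inside the gene spans given below, downstream of the outermost annotated start.
F3: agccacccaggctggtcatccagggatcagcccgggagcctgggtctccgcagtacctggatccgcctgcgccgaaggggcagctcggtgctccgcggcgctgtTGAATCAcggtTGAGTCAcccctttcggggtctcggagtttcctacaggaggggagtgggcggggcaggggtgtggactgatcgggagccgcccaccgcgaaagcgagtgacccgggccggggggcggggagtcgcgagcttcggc
Plaur: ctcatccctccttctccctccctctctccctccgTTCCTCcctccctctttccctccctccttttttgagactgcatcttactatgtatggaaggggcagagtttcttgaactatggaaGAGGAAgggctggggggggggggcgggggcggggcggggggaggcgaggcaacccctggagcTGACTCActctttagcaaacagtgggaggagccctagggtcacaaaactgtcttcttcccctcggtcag
Serpinb2: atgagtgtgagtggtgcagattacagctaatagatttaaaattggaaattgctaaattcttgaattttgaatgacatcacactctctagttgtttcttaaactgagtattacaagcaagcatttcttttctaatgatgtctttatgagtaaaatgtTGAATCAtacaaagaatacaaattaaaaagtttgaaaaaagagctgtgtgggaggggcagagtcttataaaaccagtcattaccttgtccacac
F10: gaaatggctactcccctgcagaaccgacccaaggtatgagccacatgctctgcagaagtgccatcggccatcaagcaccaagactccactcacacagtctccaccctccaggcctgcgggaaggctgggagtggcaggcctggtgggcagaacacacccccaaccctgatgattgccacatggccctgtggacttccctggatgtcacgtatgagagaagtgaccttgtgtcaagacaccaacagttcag

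AP-1 matches lay in the windows of 3 of these 7 members, F3, Plaur and Serpinb2, while 6.75% of 32851 RefSeq windows of that length held the motif. A member with 2 starts was counted if either window matched, while the percentages are of single windows. The 2 Serpinb2 windows overlap and share its match. F3 had a pair of them, at −146 to −140 and −135 to −129 from the annotated start, Plaur had one at −69 to −63, and Serpinb2 one at −94 to −88. PU box letters were found for F7, Plaur, F13a1 (only at the more upstream of 2 starts) and Tfpi (only at the more downstream of 2), against 23.3% of all windows. In Plaur they occurred at −216 to −211 on the minus strand and at −131 to −126 on the plus strand. The NF-kB consensus GGGRNNYYCC (R is A or G, Y is C or T, N is any base), CCGGAA (Ets) and TGACGTCA (CRE) were in none of the members' windows. They were in 7.25%, 12% and 1.55% of all windows. Only exact matches were sought, so sites that depart from these letters are not counted and their absence is not shown. The Plaur window also held GCGNGGGCG (Egr), found in 4.70% of all windows, with 2 of its 3 GGGCGG (Sp1) matches overlapping it. GGGCGG further occurred in the windows of F3 and Tfpi (32.7% of all), and TATAAA in those of Serpinb2 and in 1 of the 2 of Tfpi (12.4%). In the F10 window none of these 8 motifs was present. These matches are letters in a sequence and were not measured as bound.

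Tissue factor and the factors it engages were low without LPS. F3 lies on chromosome 3 from 121723537 to 121735052. It stood at 1.496 FPKM in untreated control, 7.97 in LPS-treated control, 0.602 in untreated knockout and 21.4 in LPS-treated knockout. The LPS-treated libraries were thus the high ones in each genotype, and the knockout library was the lower of its pair without LPS and the higher with LPS. With LPS, F3 was 5.33-fold higher in control (counting interval 3.72 to 7.81) and 35.5-fold higher in knockout (20.4 to 67.3), log2 ratios of 1.85 and 3.81. The difference between these responses, 1.96 on the log2 scale, was the largest among the 9 members, and with 1 library a group it was not tested. Its size depends on the pseudocount, at 2.60 with 0.1 FPKM and 1.24 with 5 FPKM. Knockout to control ratios of F3 were 0.403 without LPS (0.197 to 0.770) and 2.68 with LPS (2.18 to 3.30). The first of these rests on about 13 fragments in knockout and 39 in control.

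**Figure D1:**
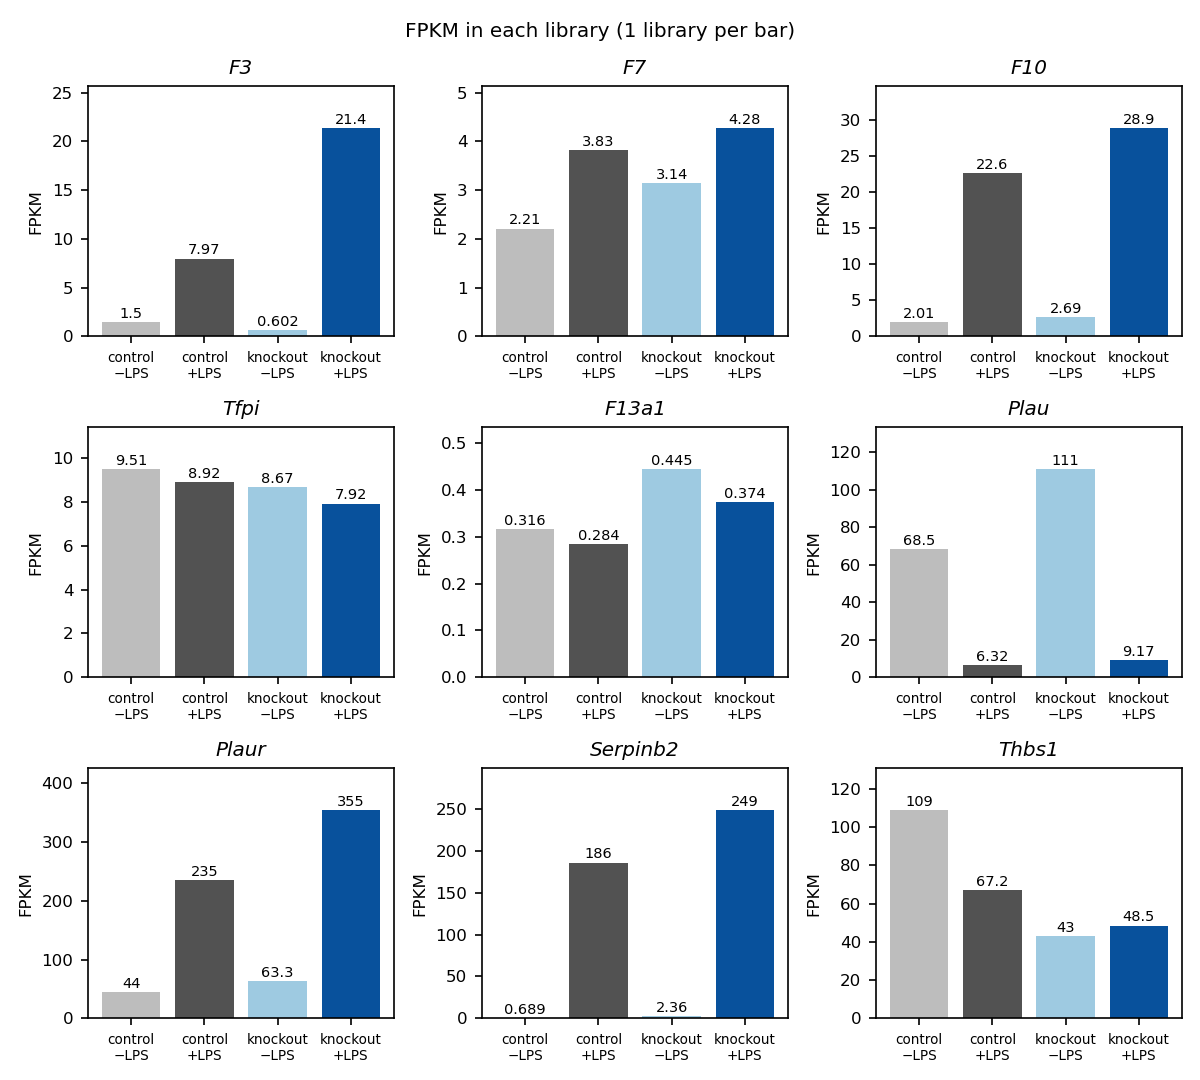
FPKM of each of the 9 members (vertical axes, linear and starting at 0, with a scale of its own per panel) in the 4 libraries, 1 library per bar and no error bars because no group has a replicate. F3, F10, Plaur and Serpinb2 are high in the 2 LPS-treated libraries, Plau is high in the 2 untreated ones, and Tfpi lies between 7.92 and 9.51 FPKM in all 4.

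F7 and F10 encode the vitamin K-dependent proteases factor VII and factor X, and the liver is their main source in the body. They are neighbours on chromosome 8, on one strand, with F7 at 13025506 to 13035809 and F10 at 13037308 to 13056676, 1498 bases apart. F10 stood at 2.01 FPKM in untreated control, 22.6 in LPS-treated control, 2.69 in untreated knockout and 28.9 in LPS-treated knockout. It was 11.2-fold higher with LPS in control (8.47 to 15.3) and 10.7-fold higher in knockout (8.15 to 14.4), so both treated libraries lay far above both untreated ones. F7 stood at 2.21, 3.83, 3.14 and 4.28 FPKM in the same order and reached 5 FPKM in no library. Its ratio with LPS was 1.73 in control (1.199 to 2.51) and 1.36 in knockout, where the counting interval of 0.942 to 1.97 includes 1. Without LPS the 2 genes were level within counting error, with F10 at 0.909 times F7 in control and 0.859 times in knockout, and with LPS F10 was at 5.90 and 6.76 times F7. The genes on either side of this pair, Mcf2l and Proz, the gene of protein Z, were under 1 FPKM in every library. Hepatocyte markers did not reach 1 FPKM either, with Alb, Ttr, Fgb and Ahsg listed at 0 throughout.

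Tfpi, on chromosome 2 at 84432855 to 84476775, encodes the inhibitor of the tissue factor and factor VII complex. It was at 9.51 FPKM in untreated control, 8.92 in LPS-treated control, 8.67 in untreated knockout and 7.92 in LPS-treated knockout. All of its 4 counting intervals of ratios include 1, and its ratios were 0.937 (0.738 to 1.18) with LPS in control and 0.914 (0.688 to 1.21) in knockout. Set beside each other in one library, Tfpi was at 6.36 times F3 in control and 14.4 times in untreated knockout. With LPS, Tfpi was at 1.12 times F3 in control and 0.370 times in knockout, so F3 stood above its inhibitor in 1 of the 4 libraries. F13a1, on chromosome 13, encodes the A subunit of factor XIII, the transglutaminase that cross-links fibrin and is known as a marker of some tissue macrophages. It was the lowest member in every library, at 0.284 to 0.445 FPKM or 11 to 21 estimated fragments, and no difference between libraries was detectable at this depth.

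Among the plasminogen activation genes, Plau and Serpinb2 stood in opposite order with and without LPS. Plau, on chromosome 14 at 20836662 to 20843388, encodes urokinase. It stood at 68.5 FPKM in untreated control, 6.32 in LPS-treated control, 111 in untreated knockout and 9.17 in LPS-treated knockout. Both treated libraries were far below both untreated ones, and knockout was the higher of each pair. With LPS the level was 10.9-fold lower in control (9.16 to 12.9) and 12.1-fold lower in knockout (10.3 to 14.3), log2 ratios of −3.25 and −3.46. Knockout to control ratios were 1.62 (1.54 to 1.71) without LPS and 1.45 (1.15 to 1.83) with LPS.

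Serpinb2, on chromosome 1 at 107500892 to 107525600, encodes PAI-2, an inhibitor of urokinase that stays largely inside the cell. Its FPKM was 0.689 in untreated control, 186 in LPS-treated control, 2.36 in untreated knockout and 249 in LPS-treated knockout. The treated libraries stood 269.9-fold (172 to 448) and 105-fold (80.4 to 140.3) above the untreated ones, and the log2 ratios of 6.79 and 6.22 were the highest among the members in each genotype. Without LPS, knockout was at 3.43 times control (2.002 to 6.13), on about 54 and 19 fragments, and its log2 ratio of 0.99 lay just under the 2-fold line. With LPS that ratio was 1.34 (1.28 to 1.40). In its serpin cluster, Serpinb7 and Serpinb11 were listed at 0 in every library, while Serpinb8 was at 31.2 FPKM in untreated control, 20.5 in LPS-treated control, 41.5 in untreated knockout and 34.4 in LPS-treated knockout. Annotated transcripts of Serpinb10 overlap Serpinb2 on its strand, and the row named Serpinb10-ps was at no more than 0.0497 FPKM.

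Plaur, on chromosome 7 at 24460937 to 24475970, encodes the urokinase receptor, a protein held on the cell surface by a lipid anchor. It stood at 43.99 FPKM in untreated control, 235 in LPS-treated control, 63.3 in untreated knockout and 355 in LPS-treated knockout, the last being rank 365 among all 23284 genes of that library. The ratio with LPS was 5.35 in control (4.97 to 5.77) and 5.601 in knockout (5.23 to 6.004). Knockout was the higher library of each pair, at 1.44 times control (1.32 to 1.58) without LPS and 1.51 times (1.44 to 1.58) with LPS. Within a library, the order of Plau and Serpinb2 was the opposite with LPS: Plau was at 99.5 times Serpinb2 in control and 47.1 times in untreated knockout, and Serpinb2 was at 29.4 and 27.2 times Plau with LPS. Serpinb2 is not the only inhibitor gene of this pathway. Serpine2 was at 35.5 FPKM in untreated control and 28.4 in untreated knockout, and at 40.8 and 35.2 with LPS. The receptor stood at 0.642 and 0.569 times its ligand Plau without LPS and at 37.3 and 38.7 times with LPS.

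Thbs1, on chromosome 2 at 118111876 to 118127133, encodes thrombospondin 1, a matrix and platelet glycoprotein known to bind plasminogen activation components and to activate latent TGF-beta. It stood at 109 FPKM in untreated control, 67.2 in LPS-treated control, 43.03 in untreated knockout and 48.5 in LPS-treated knockout. Both control libraries lay above both knockout libraries. A gene on the opposite strand overlaps Thbs1, as antisense genes do F13a1, and no source used here says whether counting used strand. Its ratio with LPS was 0.616 (0.594 to 0.639) in control and 1.13 (1.07 to 1.19) in knockout, and the second of these lay below 1 after upper-quartile scaling (log2 ratio −0.11 against 0.17 as deposited). Knockout to control ratios were 0.395 (0.379 to 0.411) without LPS and 0.721 (0.685 to 0.760) with LPS.

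Most markers of stromal cells, like Thbs1, stood lower in knockout. Of 12 such markers 11 reached 1 FPKM, and their summed level was 769 FPKM in control and 394 in untreated knockout, and 793 and 443 with LPS. The knockout to control ratio of that sum was 0.513 without LPS and 0.558 with LPS. Median log2 ratios of the 11 were −0.79 and −0.68. Of the 11, 1 stood higher in knockout in each comparison, Dcn, with log2 ratios of 0.04 and 0.09, and Pdgfra was at −0.12 without LPS. Thbs2, the paralog of Thbs1, was at 20.1 and 9.45 FPKM without LPS and at 17.2 and 8.46 with LPS, ratios of 0.470 and 0.493. Thbs1 equalled 14.2% of the stromal sum in untreated control, 8.47% in LPS-treated control and 10.9% in each knockout library. No stromal marker was at 0 in all libraries, and their part in the Thbs1 result was not tested. In bulk RNA, fewer cells of a type and less RNA per cell cannot be told apart. Endothelial markers summed to 1.71 to 2.16 FPKM, with Pecam1 and Cdh5 at no more than 0.163 FPKM.

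**Figure D2:**
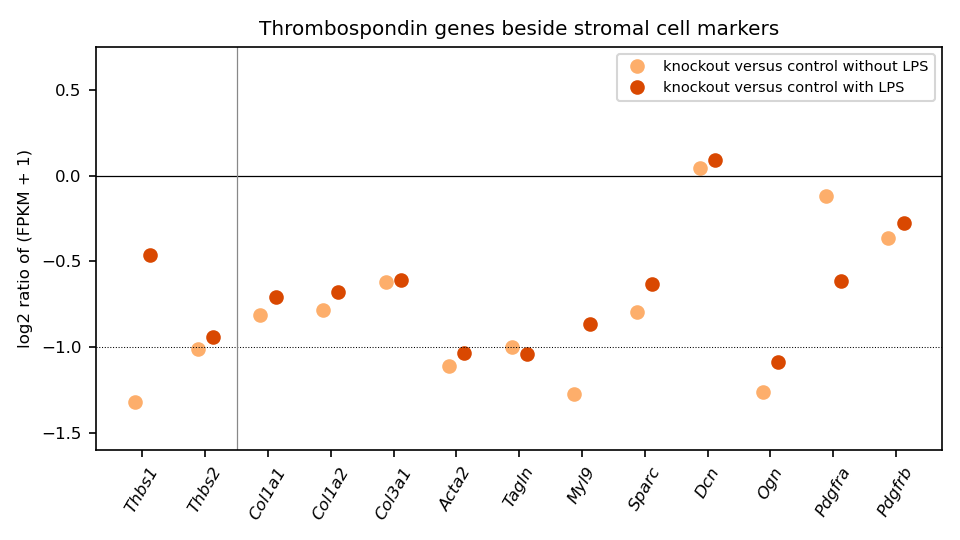
Log2 ratios of (FPKM + 1), knockout over control (vertical axis), for Thbs1, Thbs2 and the 11 stromal cell markers that reached 1 FPKM, without LPS (light points) and with LPS (dark points), 1 library on each side of a ratio. The dotted line marks 2-fold lower; Thbs1 goes from −1.32 without LPS to −0.46 with LPS, while Thbs2 is at −1.01 and −0.94.

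Beside the 4 higher members, 1 of the 9, Plau, was 2-fold or more lower with LPS in each genotype, beside 6.5% of genes in control and 7.74% in knockout. Of the members, 7 reached the minimum of 5 FPKM in each of these comparisons, and F7 and F13a1 did not. In the genotype comparison without LPS only 4 members, Tfpi, Plau, Plaur and Thbs1, reached that minimum. Of these 4, none was at least 2-fold higher in knockout and 1, Thbs1, was lower, beside 0.49% and 0.412% of 7762 genes. With LPS, of 7 members that reached it, F3 was the 1 at least 2-fold higher and none was lower, beside 0.493% and 0.4% of 7509 genes. The median genotype ratio of the members that reached the minimum was 0.20 without LPS (4 members) and 0.42 with LPS (7 members) on the log2 scale, beside 0.07 and 0.09 for all genes that reached it. Over all 9 members these medians were 0.30 and 0.34. Since the members were chosen with these ratios known, nothing is read from the counts. The 2 genotype comparisons share no library with each other, nor do the 2 LPS comparisons, but each LPS comparison shares libraries with each genotype comparison.

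**Figure D3:**
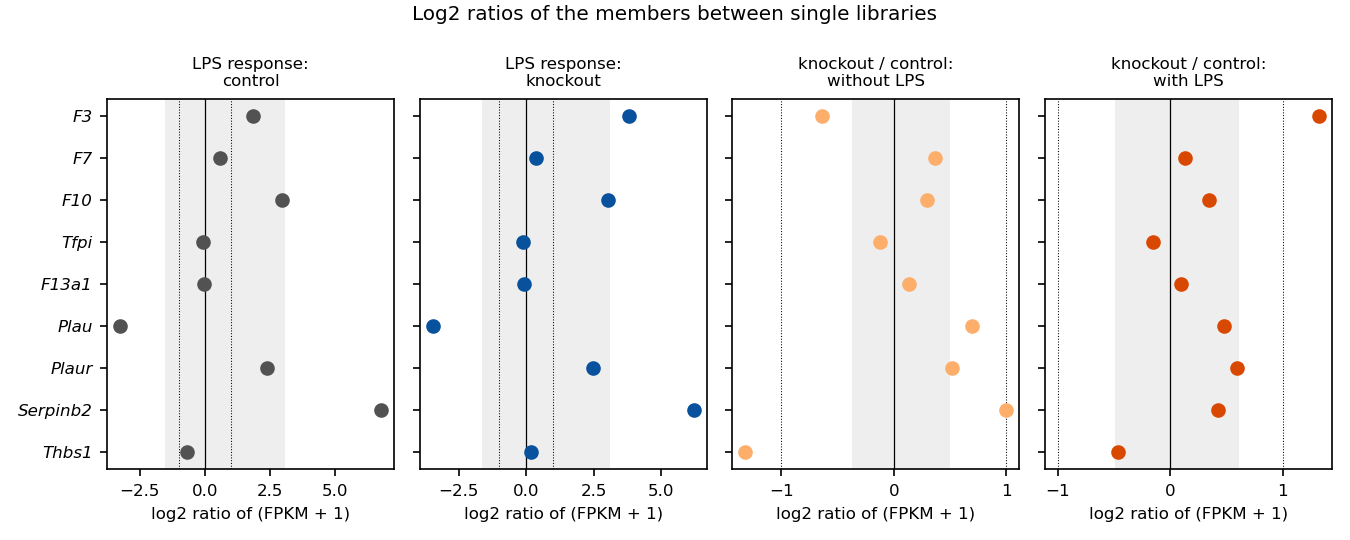
Log2 ratios of (FPKM + 1) for the 9 members (rows) in the LPS comparison of each genotype and in the genotype comparison without and with LPS, 1 library on each side of a ratio. Grey bands hold the central 95% of all genes with at least 5 FPKM, dotted lines mark 2-fold, and the horizontal scales differ between LPS and genotype panels. Serpinb2 (6.79 and 6.22) and Plau (−3.25 and −3.46) lie outside the bands of both LPS panels and F3 (3.81) outside that of the knockout, and Thbs1 (−1.32) and F3 (1.32) lie farthest out in the genotype panels.

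Around the members, genes of further coagulation proteases and cofactors, of fibrinogen and of plasminogen were low or at 0. A list of 67 further pathway genes was taken, of which 66 were in the files under these symbols and 32 reached 1 FPKM in a library. Of 13 coagulation proteases, cofactors and fibrinogen chains, only Kng1, the kininogen gene, did so (0.544 to 1.42 FPKM), and Vwf stayed at 0.374 to 0.825. Prothrombin (F2), the fibrinogen genes Fga, Fgb and Fgg, and plasminogen (Plg) were listed at 0 in all libraries. None of the 4 genes of protease-activated receptors, a family that includes the main thrombin receptor, reached 1 FPKM, with F2r at 0.275 to 0.766 and F2rl2 lower.

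Among the 29 pathway genes with at least 5 FPKM in control, 5 were at least 2-fold higher and 2 lower with LPS, beside 12.3% and 6.5% of all genes, with a median log2 ratio of −0.10 over the 32 beside 0.11 over all genes with at least 5 FPKM. In knockout 7 of 28 were higher and 1 lower, beside 13.7% and 7.74% of all genes, with a median of −0.03 beside 0.12. After upper-quartile scaling 3 were higher and 3 lower in control (median −0.32), and 4 higher and 3 lower in knockout (median −0.31). Procr, the endothelial protein C receptor gene, was at 68.8 FPKM without LPS and 356 with LPS in control and at 68.4 and 377 in knockout. Thbd, which encodes thrombomodulin, the thrombin receptor that starts protein C activation, was at 5.58 and 1.59 FPKM in control and at 4.12 and 1.13 in knockout. In this anticoagulant group the receptor gene Procr and Thbd thus differed in direction, and Proc, the gene of protein C itself, was listed at 0. Anxa5, the gene of a protein that shields phosphatidylserine, was at 263 and 475 FPKM in control and at 289.8 and 589.6 in knockout.

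Plat, the gene of tissue plasminogen activator, was low, at 0.936 and 4.18 FPKM in control without and with LPS and at 0.632 and 5.39 in knockout. The serpin genes Serpinb6a and Serpine2, the latter the gene of protease nexin 1, were at 219 to 293 and 28.4 to 40.8 FPKM.

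Genes of receptors and uptake differed in direction with LPS. Lrp1, the endocytic receptor that clears urokinase bound to its inhibitor, was at 59.3 and 26.5 FPKM without and with LPS in control and at 62.7 and 24.9 in knockout. Itgav, the integrin alpha V gene, was at 24.4 and 82.3 FPKM in control and at 25.3 and 98.0 in knockout. The plasminogen-binding Anxa2 was at 374 to 638 FPKM, and Itgb2, an integrin chain that pairs with the urokinase receptor at the cell surface, at 329 to 416. Cd36 and Cd47, which encode thrombospondin receptors, were at 707 to 923 and at 67.0 to 162 FPKM, and Cd47 was 2.198-fold higher with LPS in control and 2.06-fold in knockout. Furin, a protease gene, was at 20.9 and 45.5 FPKM in control and at 20.7 and 51.9 in knockout, while the disulfide isomerase genes P4hb and Pdia3 stayed between 155 and 172. Tgm2, a tissue transglutaminase gene related to F13a1, was at 38.5 and 149 FPKM in control and at 39.9 and 164 in knockout, and Tgm1 was at 0.126 to 0.292.

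**Figure D4:**
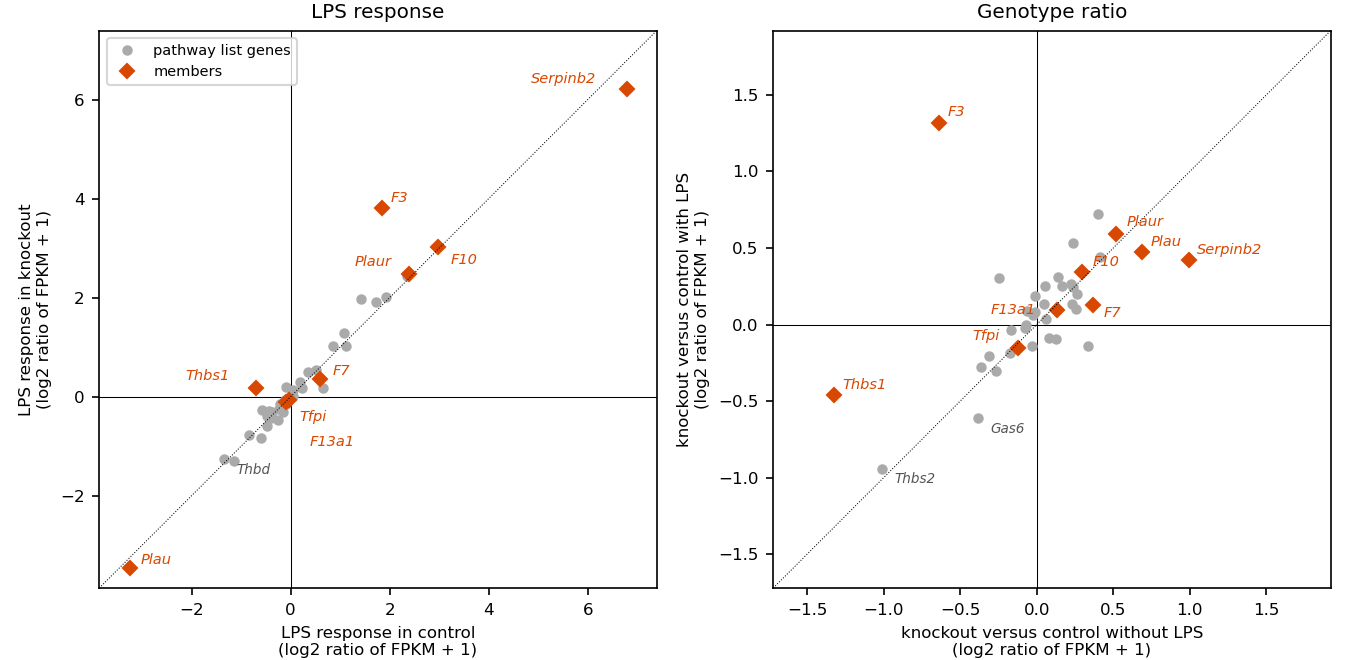
Each point is a gene: the 9 members (diamonds) and the 32 pathway genes that reached 1 FPKM (circles). The left panel sets the LPS log2 ratio in control (horizontal) against that in knockout (vertical), and the right panel the knockout to control log2 ratio without LPS (horizontal) against that with LPS (vertical); the 2 axes of a panel share no library and the dotted line marks equal values. F3 lies above the line in both panels, at 1.85 and 3.81 on the left and −0.64 and 1.32 on the right.

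For each member reaching 5 FPKM, the 2 genes with the nearest profile over the 4 libraries are given as description only. Among so many genes some lie near almost any profile of 4 points, and shared regulation was not tested. Likeness was the Euclidean distance between log2(FPKM + 1) profiles, each centred on its own mean, over 7773 genes with at least 5 FPKM in a library, leaving out small RNA and unnamed genes. The 2 nearest genes to F3 were Inhba, which encodes a subunit of activin A (distance 0.43), and Il1f6 (0.47), which was listed at 0 in both untreated libraries. Inhba stood at 4.60 FPKM in control and 3.86 in untreated knockout and at 25.8 and 48.5 with LPS. Plau was nearest to the cyclin D1 gene Ccnd1 (0.20), at 62.7, 5.68, 87.7 and 7.18 FPKM in control without and with LPS and knockout without and with LPS, and then to Gcnt1 (0.26). For Serpinb2 the nearest were Irg1, the gene of the itaconate-producing enzyme (0.29), and the prostaglandin E synthase gene Ptges (0.50). Plaur was closest to the chemokine gene Ccl9 (0.10) and to Slfn5 (0.12), and F10 to the receptor tyrosine kinase gene Met (0.06) and Mnda (0.06). The genes nearest to Thbs1 were Myl9 (0.29) and Actg2 (0.31), both smooth muscle genes, and those nearest to Tfpi were Wipi2 and Ccdc90b.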

How the data were processed

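RNA from 4 cultures was sequenced from stranded mRNA libraries, 1 for each combination of genotype and LPS. The authors deposited FPKM per gene on mm10. Tools named in the submitters' processing notes are Cuffnorm 2.2.1, TopHat2 2.0.13, SAMtools 0.1.19 and Bowtie2 2.2.3, without roles. The annotation and library scaling are not given in the sources used here.

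Values were used as deposited, and summed to 500123 and 736818 FPKM in untreated and LPS-treated control and to 525348 and 819232 in knockout. Low values mostly lie on whole multiples of 1 fragment's value. By these steps, 1 FPKM stood for fewer fragments in LPS-treated control (67.8% of untreated control), untreated knockout (82.8%) and LPS-treated knockout (51.6%). Because the library scaling is not given, these are not shares of the fragments sequenced. Of 3175 genes under 0.6 FPKM, 83.2% lay within 0.02 of a whole step, with divisors up to 6. Fragments per gene are estimates from 203 GENCODE genes with 1 transcript, taking effective length as exonic length less 210 bases, and the shortest coding transcript with a RefSeq match. Ratio intervals are Clopper-Pearson (Python 3.11.15, scipy 1.17.1). Calls and intervals were run on simulated data with counting error only, drawn with the same depths and lengths that the intervals use. The absolute fragments per FPKM, the transcript lengths and differences between cultures were therefore not tested. A pseudocount of 1 FPKM, a minimum of 5 FPKM and 2-fold were used, and list genes needed 1 FPKM. Alternatives were other pseudocounts, minima, thresholds and scalings.

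The members, lists and settings were chosen with earlier results of these data known. Named were all members, Spic, pathway genes at 2-fold or more, the 2 highest genes of each list and the 2 nearest profiles of each member reaching 5 FPKM. Serpinb8 and the other neighbours, Proc and the fibrinogen genes were named outside that rule, after their values were seen. Mast cell and basophil markers summed to no more than 0.197 FPKM. Of the lists, 1 pathway gene and 1 marker are not reported here and were left out of the counts.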

Additional observations from a re-analysis of the deposited data

Results flagged for a closer look

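F3 had knockout to control log2 ratios of opposite sign, −0.64 without LPS and 1.32 with LPS. What drew attention was that the only library pair in each LPS state differed in another direction, and the difference was not tested because each group has 1 library. Thbs1 had LPS log2 ratios of opposite sign, −0.69 in control and 0.17 in knockout, which was not tested either. With upper-quartile scaling the Thbs1 value in knockout was −0.11, below 0 as in control.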

How the results depend on the processing

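No group has a replicate, so no replicate could be left out. No paired analysis was possible because each group has 1 library and the labels give no replicate numbers. Raising or lowering the threshold moved counts of members: at 1.5-fold, 2 members were lower with LPS in control, 1 was higher in knockout without LPS and 2 were higher in knockout with LPS, and at 3-fold, 0 were lower in knockout without LPS and 0 higher in knockout with LPS. Under the other alternatives, other pseudocounts, minima and scalings, these counts stayed within 1.5 times those reported. Of the 36 single ratios of members, a pseudocount of 5 FPKM took 1 under 2-fold, F3 with LPS in control (0.998), and a pseudocount of 0.1 FPKM took 2 past it, F3 (−1.18) and Serpinb2 (1.64) in knockout without LPS. Differences between the LPS responses of knockout and control moved too. For F3 the difference was 1.96 as reported, 2.60 at 0.1 FPKM and 1.24 at 5 FPKM, and for Serpinb2 −0.57, −1.22 and 0.04. Under upper-quartile scaling the LPS median over all genes was −0.12 in place of 0.11 in control and −0.14 in place of 0.12 in knockout, and it changed the sign of 1 of the 36 ratios, Thbs1 with LPS in knockout (−0.11). Median-ratio scaling changed the sign or call of none of the 36. Without small RNA and unnamed rows, an alternative chosen after seeing the data, 0.259% and 0.226% of genes were at least 2-fold lower in knockout without and with LPS, against 0.412% and 0.4%. Searching the whole 300-base window in place of its upstream part, also chosen later, gave AP-1 matches in 3 members again. Depth limits F13a1, F7 and the untreated values of F3, F10 and Serpinb2, which rest on 11 to 67 estimated fragments.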
